A study of Mus musculus with 12 samples.

Results

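The genes described here are 10 genes of growth factor signalling measured in macrophages of the mouse pancreas: the ligands Tgfb1, Tgfb2, Tgfb3, Inhba, Bmp2, Gdf15, Pdgfa, Pdgfb and Pdgfc, and the receptor gene Tgfbr2. They were taken by gene symbol, with every probe that carries the symbol. All 10 had at least 1 probe on the array, 14 probes in all, and 9 of the 10 passed the filter on dim probes and were tested among 16403 genes. Tgfb2 did not pass and is given as values only. Bmp2 and Gdf15 lie outside the TGF-β isoforms, activins and PDGFs in the narrow sense, and Tgfbr2 is a receptor, so the group is wider than growth factors of those names.

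Macrophages, the resident or monocyte-derived phagocytes of a tissue, were isolated by flow sorting into lysis buffer. They came either from the normal pancreas or from tumors of the pancreas. Messenger RNA was amplified and hybridised to 12 single-color Agilent arrays, 6 per group. Every sample is labelled female, C57/B6 and 4 to 5 months old, and no genotype is given for any sample. The protocol says that animals had tumors implanted. The series design lists as sources wild-type, KPC (mice that develop pancreatic cancer from engineered alleles) and FLT3-CRE/LSL-YFP mice (a reporter of blood-cell lineage), and which of these gave a sample is not labelled. In each group 1 sample name appears on 2 arrays. Those arrays were averaged, which left 5 samples per group. Whether samples are separate animals is not labelled, so the spread behind the p-values is that between samples and may in part be technical.

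TGF-β ligands are secreted in a latent complex and, once released, bring TGFBR2 together with a type I receptor, which phosphorylates SMAD2 and SMAD3. Activin A, a dimer of the product of Inhba, uses the same SMADs through its own receptors, whereas BMPs act through SMAD1 and SMAD5. PDGFs signal through receptor tyrosine kinases on mesenchymal cells. In pancreatic tumors, TGF-β and PDGF are known as signals to fibroblasts and stellate cells, and macrophages are 1 of several sources.

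Each gene was read through probes of 60 bases, placed by the array annotation on the mouse build mm9, which gives no exon, intron or UTR. Stretches of 30 bases are printed for the pair of genes with the smallest p-values below and for the overlapping probes of Pdgfa. Capitals mark AATAAA, the polyadenylation motif, in the Bmp2 and Gdf15 probes (bases 22 to 51 and 27 to 56), and the bases shared with the other probe in those of Pdgfa (bases 1 to 30).
Bmp2: gccaaagtactaAATAAAatataatatttc
Gdf15: taaaactctgctAATAAAggtgagcttggt
Pdgfa, other probe: actgtagcaCTCAGAGAGACAGTGAGAAAG
Pdgfa, probe tested: CTCAGAGAGACAGTGAGAAAGcttccttgt
Only the strand printed on the array was searched. AATAAA stood in 2 of the 14 probes of these genes and in 12.6% of all 39429 probes. The Pdgfa probes are offset by 9 bases and share 51, so they are nearly 1 measurement. The paired probes of Pdgfb start 1062 bases apart, those of Tgfb2 1799 and those of Tgfbr2 2341.

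Levels below are log2 processed signals relative to the 75th percentile of the same array. A level says how bright a probe was, so levels of different genes are not set against each other. Sample values are listed in a fixed order: normal replicate 1, replicates 2 and 3 averaged, and replicates 4, 5 and 6; then tumor replicates 1, 2 and 3, replicates 4 and 6 averaged, and replicate 5. Differences are tumor minus normal on the log2 scale with their standard error (SE), from limma over 5 against 5 samples, with Benjamini-Hochberg adjustment over all 16403 genes and a threshold of 0.05.

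The sort label was checked first. Macrophage markers summed to between 0.528% and 0.730% of the array signal in normal samples and between 0.565% and 0.689% in tumor samples. Of the 10 markers 0 passed the test, and 1 had an unadjusted p under 0.05. This was Adgre1, 1.74-fold lower in tumor (-0.80 ± 0.24, SE). Acinar markers such as Cpb1 and Pnlip, enzymes of the exocrine pancreas, made up 0.395% to 2.21% in normal and 0.00516% to 0.161% in tumor samples, and all 10 were lower in every tumor sample than in any normal one, 9 of them past the threshold. The sample of normal replicates 2 and 3 stood apart: its arrays were dimmest (75th percentile 399 and 430.3, against 864 to 1564 on the others), and it was highest in acinar (2.21%), islet (0.255%) and endothelial (0.0133%) markers. It was also highest in ductal and tumor epithelium markers (0.0461%), and highest of the normal samples in fibroblast markers (0.0710%). Neutrophil markers summed to 0.0135% to 0.0201% in normal and 0.0203% to 0.0263% in tumor samples, with 0 of 8 called (3 at an unadjusted p under 0.05, S100a8, Mmp8 and Cxcr2) and a median difference of 1.37. Of these 8, 6 were positive and 2 negative. S100a8 was above background on 0 of 6 normal arrays and Mmp8 on 1 of 6, so both passed the filter through the tumor arrays only. With normal values raised to the lowest signals above background, S100a8 was 2.57-fold higher in tumor. Differences that moved by over 1.5 times without the sample of normal replicates 2 and 3 are given both ways where they are named, except those of Tgfb3 and Smad2, which are near 0. In sorted bulk samples, fewer cells of a type and less RNA per cell cannot be told apart.

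Of the 9 genes tested, 0 passed the threshold in limma. The background is 140 of 16403 genes, 0.854%, of which 56 were higher and 84 lower in tumor. At an unadjusted p under 0.05 there were 3 (Bmp2, Gdf15 and Pdgfb), all lower in tumor, where 12.9% of all genes met that p in either direction and 6.25% met it on the lower side. The differences were negative for 7 of the 9, with a median of -0.55 against -0.0050 over all genes. In this fit the smallest difference that passed in any gene was 1.01, and the median SE over all genes was 0.35.

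**Figure D1:**
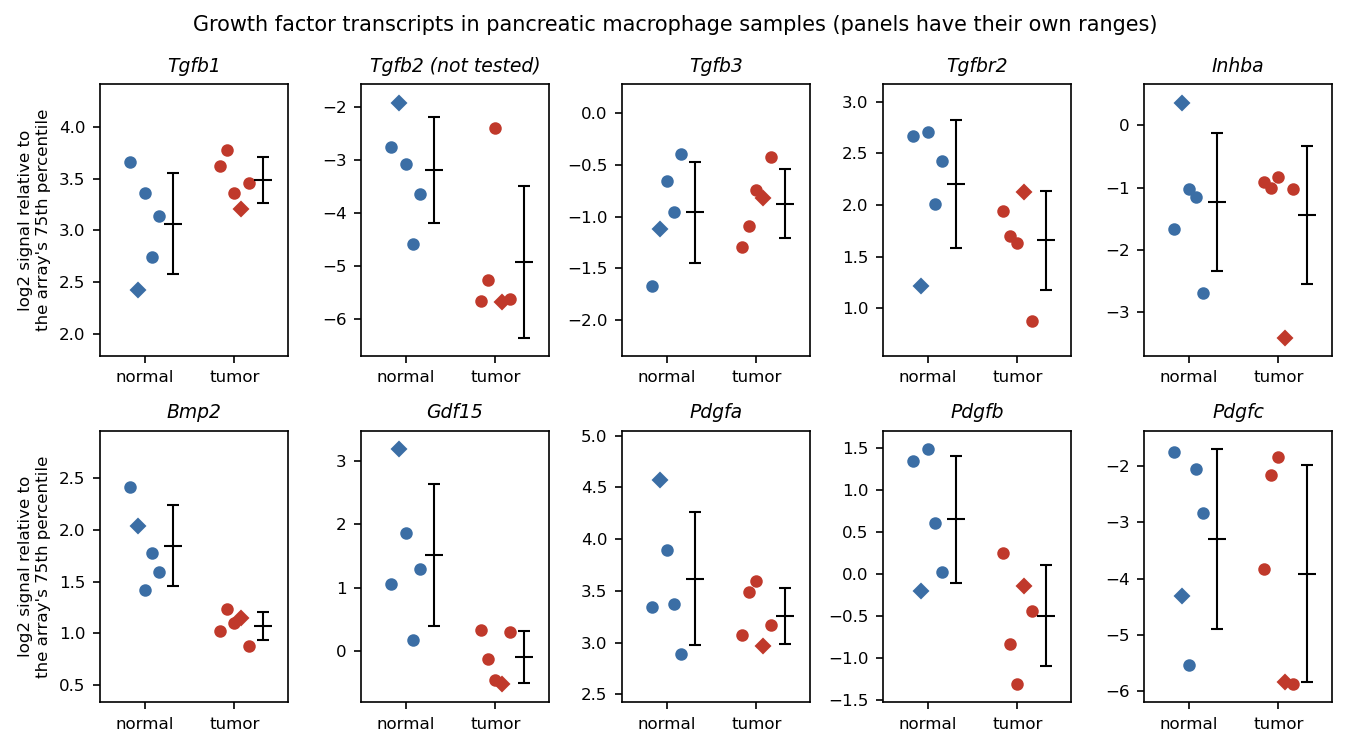
Level of each gene (log2 signal relative to the array's 75th percentile, y axis, own range per panel) in 5 normal and 5 tumor samples. Points are samples, diamonds the samples averaged from 2 arrays, and bars the mean ± SD. For Bmp2 every tumor sample lies below every normal one (highest tumor 1.23, lowest normal 1.42), while in the other panels the groups overlap.

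Tgfb1, the isoform that immune cells mainly make, was clearly above background on all 12 arrays. Its probe (chr7:26489877-26489936, plus strand) is printed 10 times per array, and the spots of 1 array had an SD of 0.060 to 0.17. Its level was 3.66, 2.42, 3.37, 2.74 and 3.13 in the normal samples and 3.62, 3.78, 3.36, 3.20 and 3.46 in the tumor samples. The tumor samples lay close together and the normal samples spread on both sides of their lower edge, so the groups overlap. The means were 3.06 ± 0.49 and 3.48 ± 0.22 (SD, n = 5 each), a difference of 0.42 ± 0.27 (SE; 95% interval -0.17 to 1.01; limma adjusted p = 0.539). The lowest normal sample is the one of replicates 2 and 3, and without it the difference was 0.26.

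Tgfb3, an isoform known mainly from mesenchymal cells, was dimmer but above background on all 12 arrays (chr12:87397804-87397863, minus strand). It read -1.67, -1.12, -0.66, -0.95 and -0.40 in normal and -1.29, -1.09, -0.74, -0.83 and -0.42 in tumor samples. The tumor values lie inside the normal range. The difference was 0.09 ± 0.28 (95% interval -0.53 to 0.71; limma adjusted p = 0.920), which leaves room for a change of up to 1.63-fold upward. Its sign turned with normexp background correction (-0.033) and without normal replicate 1 (-0.092) or tumor replicate 5 (-0.027).

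Tgfb2, the third isoform, was at or near the bottom of the scale. One of its probes was above background on 0 of 12 arrays. The other (chr1:188449333-188449392, minus strand) was above background on normal replicates 1 and 3 and tumor replicate 3 only. That probe read -2.75, -1.92, -3.07, -4.59 and -3.64 in normal and -5.67, -5.28, -2.39, -5.69 and -5.63 in tumor samples. Tumor replicate 3 was thus as bright as the normal samples, and the other 4 tumor samples were lower than every normal sample but were below background, where values have no order. With no filter on dim probes its difference was -1.74 ± 0.68, with a limma adjusted p of 0.389 over 27274 genes.

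Tgfbr2, the receptor that binds TGF-β and without which the ligand does not signal, was above background on all 12 arrays with both probes. The tested probe (chr9:115999496-115999555, minus strand) read 2.67, 1.21, 2.70, 2.01 and 2.43 in normal and 1.94, 1.70, 1.63, 2.13 and 0.88 in tumor samples. The groups overlap through the normal sample of replicates 2 and 3, the lowest of its group, and through the tumor sample of replicates 4 and 6, the highest of its own. The difference was -0.55 ± 0.34 (95% interval -1.31 to 0.21; limma adjusted p = 0.534). Without tumor replicate 5 it was -0.35, and without the sample of normal replicates 2 and 3 it was -0.80, with a limma adjusted p of 0.305. On slide 2 alone, which holds 1 of that sample's arrays, it was 0.072. The other probe (chr9:115997155-115997214) read 2.05, 0.87, 1.32, 1.78 and 1.70 in normal and 1.19, 1.20, 0.90, 1.22 and -0.77 in tumor samples, a difference of -0.80 ± 0.41 (limma adjusted p = 0.454). Both probes put tumor replicate 5 lowest, and they correlated at r = 0.824 over the 10 samples.

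Inhba encodes the βA subunit of activin A and was above background on 6 of 6 normal and 5 of 6 tumor arrays; its SE (0.62) was the largest of the 9 after that of Pdgfc. Its probe (chr13:16118634-16118693, plus strand) read -1.67, 0.36, -1.03, -1.15 and -2.69 in normal and -0.91, -1.001, -0.84, -3.41 and -1.03 in tumor samples. Tumor replicates 1, 2, 3 and 5 lie between -1.03 and -0.84, and the sample of tumor replicates 4 and 6 lies far below them on both of its arrays (-3.61 and -3.20). In normal pancreas the sample of replicates 2 and 3 lies far above the others, again on both arrays (0.24 and 0.49). The difference was -0.20 ± 0.62 (95% interval -1.58 to 1.17; limma adjusted p = 0.915). It changed sign without either of these samples, to 0.20 without normal replicates 2 and 3 and to 0.29 without tumor replicates 4 and 6. Its lowest value over all alternatives was -1.96, on slide 2 alone.

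Bmp2 encodes a bone morphogenetic protein that in the gut wall is known as a signal from resident macrophages to neurons. Its probe (chr2:133388260-133388319, plus strand), whose stretch with AATAAA is printed above, read 2.41, 2.04, 1.42, 1.78 and 1.59 in normal and 1.02, 1.23, 1.098, 1.15 and 0.88 in tumor samples. It was the only gene of the 9 whose groups did not overlap. In 1.59% of all genes tested every tumor sample was below every normal one. The means were 1.85 ± 0.39 and 1.08 ± 0.14 (SD, n = 5 each), a difference of -0.77 ± 0.23 (95% interval -1.28 to -0.27), or 1.71-fold lower in tumor, with an unadjusted p of 0.00646 and a limma adjusted p of 0.185. Within single slides the difference was -1.14, -0.52 and -0.72. A slide holds only 2 arrays per group, and the samples averaged from 2 arrays span slides, so these values are not independent. Without normal replicates 2 and 3 it was -0.73.

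Gdf15, a distant member of the TGF-β family that cells release under stress and that acts through GFRAL in the hindbrain, had the largest difference of the 9. Its probe (chr8:73153293-73153352, minus strand) read 1.07, 3.18, 1.86, 0.18 and 1.30 in normal and 0.34, -0.13, -0.44, -0.52 and 0.31 in tumor samples. The groups overlap only through normal replicate 5, which lies below tumor replicates 1 and 5. The means were 1.52 ± 1.11 and -0.09 ± 0.40 (SD, n = 5 each), a difference of -1.60 ± 0.48 (95% interval -2.67 to -0.54), or 3.04-fold lower in tumor, with an unadjusted p of 0.00708 and a limma adjusted p of 0.194. The highest normal value is that of replicates 2 and 3, whose arrays differed by only 0.038 for this gene. Without that sample the difference was -1.19 (limma adjusted p = 0.209), and on slide 3, which holds neither of its arrays, -0.86. The part of acinar, islet or other non-macrophage RNA in this difference was not tested.

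When the 12 arrays were taken as separate samples, Bmp2 (-0.79, limma adjusted p = 0.0496) and Gdf15 (-1.95, adjusted p = 0.0488) passed the threshold. That fit counts the repeated sample names as independent. The other settings tried, with the arrays averaged or the name kept as a random effect, called 0 of these genes in limma, also on single slides, with 1 to 4 at an unadjusted p under 0.05. Over the 24 alternatives the adjusted p ran from 0.0496 to 0.952 for Bmp2 and from 0.0488 to 0.980 for Gdf15, and neither changed sign.

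**Figure D2:**
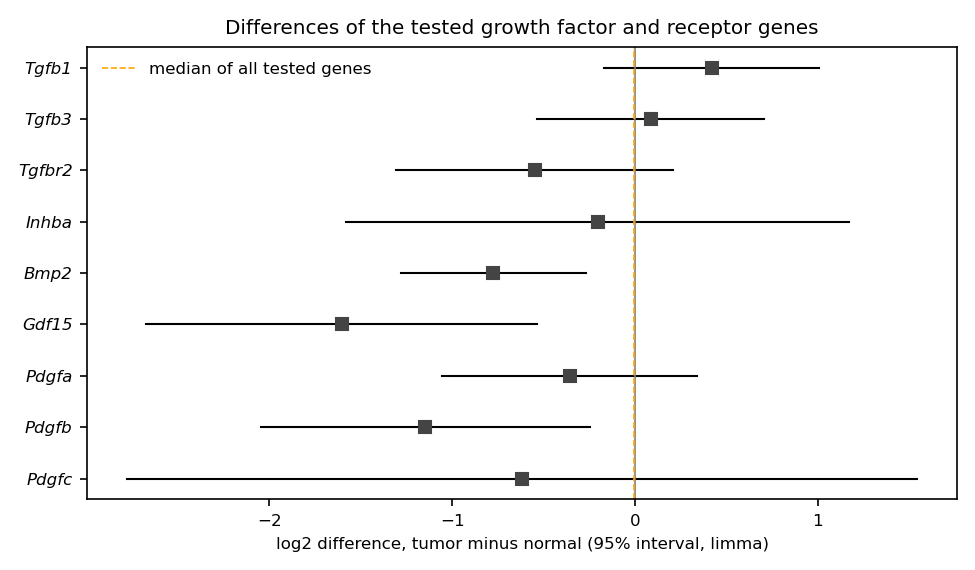
Log2 difference, tumor minus normal, of the 9 tested genes (squares) with the 95% interval of the limma fit (lines). The dashed line is the median of all 16403 genes. The intervals of Bmp2, Gdf15 and Pdgfb lie below 0 before adjustment over all genes, and the widest, that of Pdgfc, runs from -2.78 to 1.55.

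Pdgfa encodes the A chain of platelet-derived growth factor, a mitogen for mesenchymal cells. Its tested probe (chr5:139452925-139452984, minus strand) read 3.35, 4.58, 3.90, 3.37 and 2.89 in normal and 3.08, 3.49, 3.59, 2.96 and 3.17 in tumor samples. All tumor values fall within the normal range, whose top is again the sample of replicates 2 and 3. The difference was -0.36 ± 0.32 (95% interval -1.05 to 0.34; limma adjusted p = 0.664) and -0.12 without that sample. Without normal replicate 6 it was -0.54. The overlapping probe gave -0.33, and the probes correlated at r = 0.977.

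Pdgfb encodes the B chain, known for recruiting pericytes to vessels and made by platelets, endothelium and macrophages. Its tested probe (chr15:79827438-79827497, minus strand) read 1.34, -0.20, 1.48, 0.60 and 0.02 in normal and 0.25, -0.84, -1.31, -0.14 and -0.44 in tumor samples. Normal replicates 1, 4 and 5 lie above every tumor sample, while normal replicate 6 and the sample of replicates 2 and 3 lie within the tumor range. The means were 0.65 ± 0.76 and -0.50 ± 0.61 (SD, n = 5 each), a difference of -1.15 ± 0.41 (95% interval -2.05 to -0.25), 2.21-fold lower in tumor, with an unadjusted p of 0.0172 and a limma adjusted p of 0.267. Unlike that of Gdf15, this difference was larger without normal replicates 2 and 3 (-1.36). The second probe (chr15:79826376-79826435) read 0.33, -0.67, 0.50, -0.20 and -0.14 in normal and -0.47, -0.25, -1.17, -1.29 and -0.91 in tumor samples. It gave -0.78 ± 0.30 (limma adjusted p = 0.312), with r = 0.788 between the probes.

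Markers of other cells that make PDGF-B were summed in each sample. Platelet and megakaryocyte markers summed to 0.00189% to 0.00537% of signal in normal and 0.00191% to 0.00487% in tumor samples, with 7 of 8 tested, 0 called (1 at an unadjusted p under 0.05, Gp6 at -1.18) and a median difference of -0.33. Of these 7, 5 were negative and 2 positive, up to 1.42 for Gp9. Endothelial markers summed to 0.00333% to 0.0133% in normal and 0.00352% to 0.00581% in tumor samples, with 8 of 9 tested, 0 called and a median difference of -0.67. At an unadjusted p under 0.05, as for Pdgfb, 2 endothelial markers were lower in tumor, Egfl7 (-1.58) and Emcn (-1.35). Of the 8 tested, 5 were negative and 3 positive, the last up to 0.31, so the markers did not move as 1. The platelet gene Ppbp and the endothelial gene Cdh5 did not pass the filter on dim probes. The part of these cells in the Pdgfb difference was not tested.

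Pdgfc encodes a PDGF that is activated by cleavage outside the cell. Its probe (chr3:81017572-81017631, plus strand) was above background on 3 of 6 normal and 2 of 6 tumor arrays. It read -1.74, -4.31, -5.53, -2.05 and -2.84 in normal and -3.83, -2.16, -1.83, -5.85 and -5.88 in tumor samples. The values fell into bright and dark samples in both groups, and on 6 arrays, 3 of each group, the processed signal was between 20.5 and 21.4, the bottom of the scale. The difference of -0.62 ± 0.98 (95% interval -2.78 to 1.55; limma adjusted p = 0.822) rests on those values, and leaving out 1 sample moved it from -1.18 (without normal replicate 4) to -0.12 (without tumor replicate 5). By over 1.5 times it also moved without normal replicate 1 (-0.23) or 5 (-0.31), tumor replicate 2 (-1.06) or 3 (-1.14), or tumor replicates 4 and 6 (-0.13). On slide 2 alone it had the opposite sign (1.16).

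**Figure D3:**
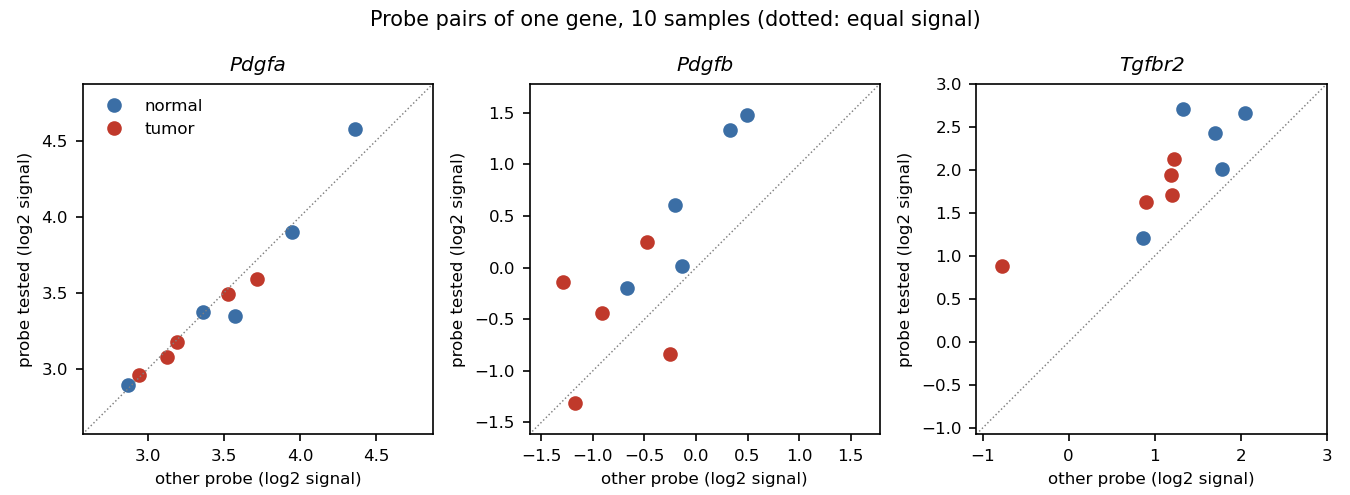
Level of the tested probe (y axis) against the other probe of the same gene (x axis) for Pdgfa, Pdgfb and Tgfbr2, both as log2 signal relative to the array's 75th percentile. Each point is 1 of 10 samples, normal in blue and tumor in red. The overlapping Pdgfa probes follow the dotted line of equal signal (r = 0.977), and the separate probes of Pdgfb and Tgfbr2 scatter more (r = 0.788 and 0.824).

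The sample of normal replicates 2 and 3 lay at an end of the normal range for 6 of the tested genes. How often it did so over all genes was not counted, so the 6 cannot be read as a trait of these genes. That sample was highest for Inhba, Gdf15 and Pdgfa, by 1.996, 2.08 and 1.197 above the mean of the other normal samples. It was lowest for Tgfb1, Tgfbr2 and Pdgfb, by -0.80, -1.24 and -1.06. The pair of arrays behind it differed by 0.038 to 0.32 for those genes (tested probes), so both arrays place it alike.

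By likeness over the 10 samples, the genes closest to Bmp2 were Pcolce2 (r = 0.928), Lims2 (0.922) and Olfr1000 (0.921), and those closest to Gdf15 were Tmem251 (0.938), B3gat2 (0.931) and S100a14 (0.922). The samples share group and array brightness, so these values are a description. Without the 2 samples farthest from the median of Bmp2 or Gdf15, r lay between 0.789 and 0.876.

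The rest of the pathway was read through 10 lists of 138 genes, of which 102 were tested. In limma 0 of the 102 passed, 19 had an unadjusted p under 0.05 (8 higher and 11 lower), and the median difference was -0.23. Those 19 are to be read against the 12.9% of all genes. Of the ligand list of TGF-β, activins and related factors, 12 genes were tested (5 positive, 7 negative, median -0.26). Gdf11, a ligand close to myostatin, had the smallest p outside the genes above (-1.04 ± 0.36, limma adjusted p = 0.251), before Gdf9 (-0.92) and Inhbb, the activin βB subunit (-0.89). The 7 tested genes of the second ligand list, BMPs with Gdf5 and Gdf7, had negative differences, with a median of -0.76 and 0 past the threshold in limma (2 at an unadjusted p under 0.05, Bmp2 and Bmp4). Over all genes tested, 8274 of 16403 were negative. Of the GDFs of the first list, Gdf9, Gdf11 and Gdf15 were negative too. The signs of Gdf1 (0.056 ± 0.61) and Gdf3 (0.16 ± 0.46) are not settled, as their SE exceeds the difference. By the same measure the signs of Gdf5, Gdf7 and Bmp8a, among the 7 negative genes of the second list, are not settled either. Bmp4 was lower by 2.01-fold (-1.01 ± 0.35, limma adjusted p = 0.256), and the differences of Bmp7 and Bmp10 were -0.88 and -0.76. Without normal replicates 2 and 3, that of Bmp7 was -0.57.

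No receptor or SMAD gene had an unadjusted p under 0.05. Of 9 receptor genes tested, 7 were negative, with a median of -0.21. Acvrl1, a type I receptor for BMP9 and BMP10, read -0.51, Acvr2b -0.23 and Acvr2a, both type II activin receptors, 0.88, the last from a probe above background on 2 of 6 normal arrays. The 5 tested SMAD genes had a median of -0.17, with Smad1 at -0.32, Smad5 at -0.44 and Smad2 at 0.19. Single samples moved these small values: Acvr2a was at 0.37 and Acvr2b at -0.37 without normal replicate 4, Smad1 was at -0.21 and Smad5 at -0.16 without tumor replicate 5, Smad5 was at -0.68 without tumor replicate 3, and Smad2 ran from 0.057 to 0.33 as samples were left out.

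Genes that hold TGF-β latent or release it gave the widest range, with 16 tested and 5 at an unadjusted p under 0.05. Thbs1, thrombospondin 1, which can activate latent TGF-β, had a difference of 2.68 ± 0.77 (6.40-fold higher in tumor, limma adjusted p = 0.167), from -2.84 ± 0.93 in normal to -0.16 ± 1.71 in tumor samples (SD, n = 5 each). Its probe was above background on 3 of 6 normal and 6 of 6 tumor arrays, so the fold rests in part on dim values, and the difference was 1.51 with normexp background correction and 1.33 on slide 2 alone. Furin, the protease that cleaves the TGF-β precursor, was higher in every tumor sample than in any normal one (0.60 ± 0.25, limma adjusted p = 0.334). Over the 24 alternatives its difference ran from 0.13 to 0.78. Ltbp4, a latent TGF-β binding protein, was lower in every tumor sample (-0.95 ± 0.31, limma adjusted p = 0.223). Of the 16403 genes, 289 were higher and 260 lower in every tumor sample than in any normal one. Among 15 inhibitors tested, the smallest p-values were those of Ppm1a, a SMAD phosphatase (-0.49), Nedd4l, a ubiquitin ligase (0.89), and Chrdl1, a BMP antagonist (-0.57), all short of the threshold. Without normal replicates 2 and 3, Nedd4l was at 0.41 and Chrdl1 at -0.37, and without normal replicate 5 Chrdl1 was at -0.36.

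Genes known to be induced by TGF-β or activin were positive in 10 of 12, with a median of 0.14. Fn1, fibronectin, had the smallest p of the 102 list genes, and its groups did not overlap, as for 289 of 16403 genes on the higher side. It read 4.34 ± 0.28 in normal and 5.23 ± 0.15 in tumor samples (SD, n = 5 each), a difference of 0.89 ± 0.21 with a limma adjusted p of 0.0893. Fibroblast markers summed to 0.0232% to 0.0710% of signal in normal and 0.0290% to 0.0741% in tumor samples, with 0 of 8 called and a median difference of -0.12. The part of fibroblast RNA in the Fn1 difference was not tested. Bhlhe40, a transcriptional repressor, followed with 1.497 ± 0.38 (limma adjusted p = 0.124), while Klf10, an early TGF-β response gene, was lower (-0.58). With normexp background correction both Fn1 (1.01) and Bhlhe40 (1.58) passed. Of 6 BMP targets tested 3 were positive and 3 negative. Id2, an inhibitor of helix-loop-helix factors, had 1.59 ± 0.62 (limma adjusted p = 0.313), against -0.57 for Id3 and -0.84 for Atoh8. The Id2 probe was above background on 3 of 6 normal arrays. Without normal replicates 2 and 3, Id3 was at -0.26 and Atoh8 at -0.52, and they were at -0.36 without tumor replicate 1 and -0.55 without tumor replicate 2.

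The wider PDGF and VEGF family had 12 genes tested, 9 of them negative, with a median of -0.38. Flt1, a VEGF receptor, had a difference of -1.35 and Nrp1, a co-receptor, of -0.62, neither past the threshold. Without normal replicates 2 and 3 that of Flt1 was -0.82. Vegfd was above background on 0 of 6 normal and 4 of 6 tumor arrays, so it passed the filter through the tumor arrays only. With normal values raised to the lowest signals above background, its mean was 1.02-fold higher in tumor, a value without sampling error. Its groups overlap (lowest tumor sample -5.65, highest normal sample -3.23), and its limma adjusted p was 0.385. The receptor genes Pdgfra and Pdgfrb did not pass the filter on dim probes. Of 12 stress genes known to accompany Gdf15, 5 were positive and 7 negative, with a median of -0.39. The 3 with the smallest p went both ways. Sesn2 was higher in tumor (0.96 ± 0.28, limma adjusted p = 0.173). Trib3 (-1.02 ± 0.34, adjusted p = 0.240) and Asns (-1.77 ± 0.68, adjusted p = 0.309) were lower, like Gdf15.

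**Figure D4:**
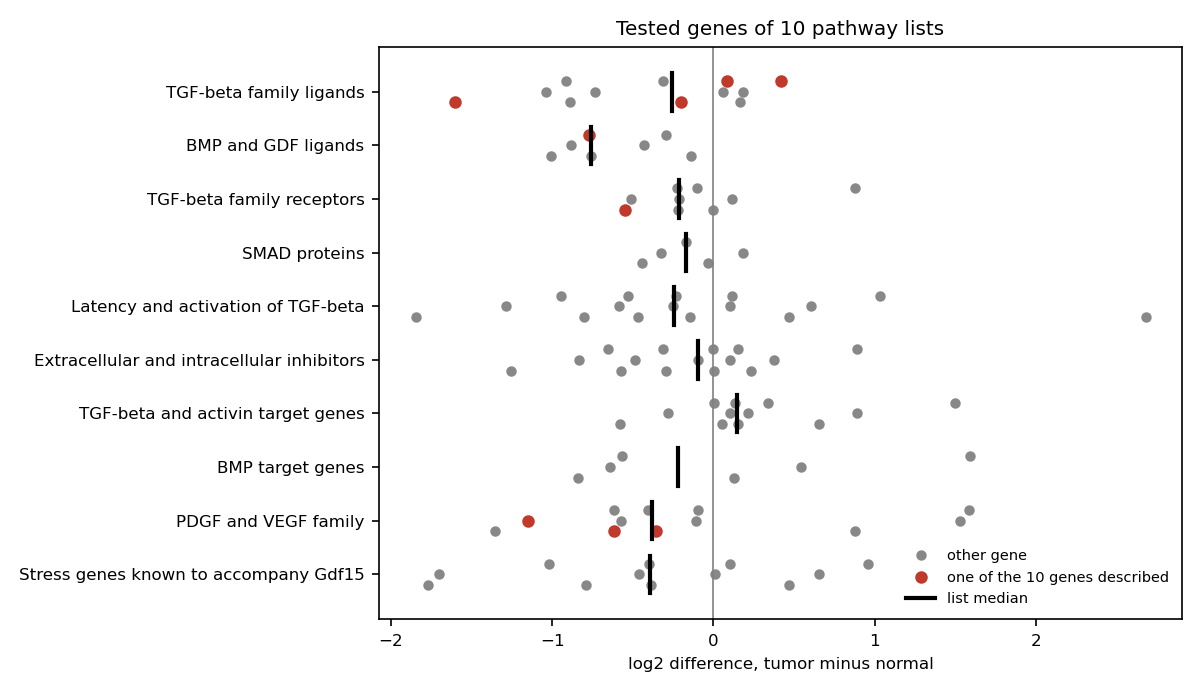
Log2 difference, tumor minus normal, of each tested gene in the 10 pathway lists. Red points are the genes described in full, grey points the others, and black bars the list medians. Each of the 7 genes of the list of BMPs and related GDFs lies left of 0 (median -0.76), Gdf5, Gdf7 and Bmp8a by less than their SE. The TGF-β and activin targets lie mostly right of 0 (median 0.14), and none of the genes shown passed the threshold.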

How the data were processed

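The authors deposited spot intensities from single-color (Cy5) arrays read with Agilent Feature Extraction 11.5.1.1, per the file headers, including a processed signal after background and spatial detrending. They also deposited log2 values per probe, which matched quantile-normalized log2 processed signals here (median absolute difference 0.000129). Per the labels' protocols, cDNA was amplified before labelling, so a fold is one of amplified signal.

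Control spots and feature-outlier spots (0.401%) were left out, spots were averaged per probe (39429), and log2 signal was taken relative to the array's 75th percentile. A probe was kept (22448) if at least 3 of the 6 arrays of a group had it well above background, and each gene was its brightest probe. Arrays sharing a sample name in the titles (r at least 0.992, against at most 0.967 for other pairs, over 13347 probes) were averaged. The fit used limma 3.58.1 (R 4.3.3), without slide, two-sided; the procedure was tested on simulated data. The number of arrays limits the precision.

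Probes were named by accession through a RefSeq gene table of assembly GRCm38.p6 (28025 probes), by symbol (3413), by synonym (295) or by the file (4985); 2711 had none. A gene above background on no array of a group is only bounded, from the lowest signals above background. Named pathway genes are the 3 smallest p-values per list besides the 10 genes; likeness is given for the 2 genes with the smallest p. Members and lists were chosen with earlier results of these data known.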

Additional observations from a re-analysis of the deposited data

Results flagged for a closer look

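In 2 of the 78 groups of 5 samples examined, 1 sample lay farther from the rest than Dixon's 95% criterion allows (0.71 of the group's range), where chance gives about 1 in 20. For Inhba in tumor, the sample of replicates 4 and 6 read -3.41 and its nearest neighbour -1.03, a gap of 0.926 of the range. For Acvr2a in normal pancreas, replicate 4 read -5.56 and its nearest neighbour -3.35, a gap of 0.739 of the range.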

How the results depend on the processing

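No paired analysis was possible because the labels give no replicate numbers that tie a normal to a tumor sample. Of the 24 alternatives, 1 moved the count of these genes past the threshold (12 arrays as separate samples, 2). The count over all genes, 140, moved to 459 with 12 arrays, 234 with a trended robust variance, and 0 on each of slides 1, 2 and 3 (limma; 1590, 1565 and 959 at an unadjusted p under 0.05), where fewer arrays were fitted. Leaving out 1 sample gave 59 to 196 genes; it fell by over 1.5 times without normal replicate 1 (85), 4 (89) or 5 (59), or tumor replicate 1 (78) or 2 (71). The alternatives were applied to the pathway genes after seeing the data: their count, 0, became 5 with 12 arrays, 2 with normexp, 2 with the robust variance, 1 with probes above background on all 12 arrays, and 0 to 1 on leaving out a sample, with Trib3 called without normal replicate 6 (-1.33) and Thbs1 without tumor replicates 4 and 6 (3.38). Reversed values were Tgfb3 (-0.033 with normexp, -0.092 without normal replicate 1, -0.027 without tumor replicate 5; leaving out 1 sample gave at most 0.23), Inhba (0.20 without normal replicates 2 and 3, 0.29 without tumor replicates 4 and 6; leaving out 1 sample gave at lowest -0.57, and slide 2 alone -1.96), Smad2 with normexp (-0.23), Pdgfc (1.16), Tgfbr2 (0.072), Acvr2b (0.13) and Nrp1 (0.16) on slide 2, and Acvr2a (-0.17), Id3 (0.045) and Inhbb (0.62) on slide 3. The cause was not tested. Signal over background limits Tgfb2 and Pdgfc.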
